A study of Mus musculus with 6 samples.

Results

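The endoplasmic reticulum folding and stress genes are a set of 33 named genes, out of 12393 genes with a probe set of their own on the arrays. They were taken as every probe set that the platform annotation gives to exactly 1 of the 33 symbols. All 33 were found, with 73 probe sets on both array designs and 10 more on the larger design of week 4. They were divided into 14 chaperones and folding enzymes, 12 genes of the IRE1/ATF6 side (sensors, degradation and translocation) and 7 genes of the ATF4 side. Livers were profiled in C57BL/6J, an inbred mouse strain prone to obesity on fat-rich food, after 2, 4 and 10 weeks on a control diet or on a high-fat diet (named HFC in the design text). Each of the 6 groups, control and high-fat at weeks 2, 4 and 10, is 1 array, and neither the sex or age of the mice nor whether RNA of 1 mouse or of a pool was hybridised is given in the sources used here. No genetic change or drug is named for any group. The liver label was checked on 7 hepatocyte markers (among them Alb, Ttr and Cps1), which were above the floor on all 6 arrays.

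Secreted and membrane proteins enter the endoplasmic reticulum through the Sec61 channel and fold there with chaperones and disulfide isomerases, which the hepatocyte, as the source of most plasma proteins, holds in large amounts. When unfolded proteins build up, 3 sensors in the membrane respond. IRE1 (gene Ern1) splices the Xbp1 messenger, ATF6 is cut free to act in the nucleus, and PERK (gene Eif2ak3) slows translation while that of Atf4 is favoured. XBP1 and ATF6 raise chaperone and degradation genes, and ATF4 raises genes of amino acid supply and, with CHOP (gene Ddit3), of cell death. The arrays measure messenger levels and not splicing, cleavage or phosphorylation, and in whole liver a lower level per cell and a smaller share of the expressing cells cannot be told apart.

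The best known control sequence of the chaperone genes is the ER stress element, CCAAT, then 9 bases, then CCACG. It was searched on both strands in promoter windows of 250 bases before to 50 bases after the start site, from RefSeq (GRCm38.p6). Windows of 28 of the 33 genes were searched, not those of Atf6, Derl1, Hyou1, Manf and Sec61a1. The element was in 39 of 32851 windows (0.119%), in 7 of 12 of the chaperone windows (58.3%), in 1 of 9 of the IRE1/ATF6 side and in 0 of 7 of the ATF4 side. The stretches are shown because they mark the sequence that 7 of the chaperones share, with both ends of the element in capitals (CGTGG and ATTGG where it lies on the opposite strand), each with 10 bases on either side of the outermost element, read in the direction of the gene.
Hspa5 (chr2:34772015-34772053, plus strand): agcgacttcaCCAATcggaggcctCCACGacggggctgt
Hsp90b1 (chr10:86705523-86705666, minus strand): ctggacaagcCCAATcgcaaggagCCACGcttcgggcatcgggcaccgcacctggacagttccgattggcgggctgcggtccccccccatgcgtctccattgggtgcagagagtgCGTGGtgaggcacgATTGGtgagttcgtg
Pdia6 (chr12:17266481-17266519, plus strand): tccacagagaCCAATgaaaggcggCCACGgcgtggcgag
Calr (chr8:84847065-84847103, minus strand): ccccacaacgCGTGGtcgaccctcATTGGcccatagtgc
Canx (chr11:50325790-50325828, minus strand): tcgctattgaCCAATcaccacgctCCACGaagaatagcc
Dnajc3 (chr14:118937817-118937855, plus strand): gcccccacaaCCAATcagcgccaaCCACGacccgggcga
Creld2 (chr15:88819510-88819548, plus strand): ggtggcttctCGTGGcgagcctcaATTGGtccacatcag
Syvn1 (chr19:6046522-6046560, plus strand): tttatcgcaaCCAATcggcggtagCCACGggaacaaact
Hsp90b1 held 2 elements, 1 on each strand (the sequence between them is in lower case), and the other genes held 1. The site CCACG, part of the element, was in 22 of 28 member windows and in 32.8% of all windows. TGACGTG, the core bound by ATF6 and XBP1, was in 1 member window, that of Hspa5, and in 2.01% of all.

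For the ATF4 side the composite core TGATGCAA was searched in the same way. It was in 294 of 32851 windows (0.895%) and in 2 member windows, Chac1 of the ATF4 side and Herpud1 of the IRE1/ATF6 side. Both lie on the opposite strand and are shown for comparison with the element above.
Chac1 (chr2:119351039-119351066, plus strand): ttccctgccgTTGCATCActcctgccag
Herpud1 (chr8:94386307-94386334, plus strand): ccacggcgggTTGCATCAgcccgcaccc
A match is a description of the sequence and does not show that a factor binds. Only the sequences as written were searched, within these windows, so the lack of a match does not show that a gene has no such site.

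Signals are linear intensities after each array was centred, and a difference is high-fat minus control on the log2 scale within a week, so that 1.5-fold is 0.58. Values under a floor of 155.3 were set to it. Of the 73 member probe sets, 67 were above the floor on at least 3 arrays and were tested, at least 1 for each of the 33 genes. The other 6 belong to Eif2ak3 (2 probe sets), Hyou1, Ern1, Atf4 and Asns. The share of probe sets above the floor was 50.4% to 65.8% over the arrays, lowest on both arrays of week 4. For pyruvate carboxylase the 3'/5' ratio, a sign of RNA integrity, differed between the diets (high-fat minus control, log2) by 1.33, 0.87 and -0.74 at weeks 2, 4 and 10. The week 10 control array was above the rest on all 4 added control RNAs, for example with BioD at 19736 against 4271 to 7858 on the others and BioC at 3496 against 522 to 2104. With the values as deposited, in which the control array of week 2 is scaled higher, the median over all probe sets at week 2 was -0.67 in place of -0.04. The summed signal of 12 Kupffer cell and macrophage markers went from 15403 on the control to 26127 on the high-fat array at week 10.

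Over the 3 weeks, none of the 67 member probe sets passed the limma test of the diet difference with week as a block (Benjamini-Hochberg adjusted p under 0.05). The lowest adjusted p among them was 0.993. Of all 14533 probe sets tested, 2 passed (0.0138%). Without week 10 none of the members passed either, with a lowest adjusted p of 0.137 (0.0413% of all probe sets passed). At an unadjusted p under 0.05 there was 1 member probe set, 1 of those for Xbp1, against 4.03% of all probe sets. Without week 10 there were 6 of 67, against 8.93% of all. The standard error of a mean difference had a median of 0.23 among the members (3 arrays per diet), the same as over all probe sets. The direction was the same at all 3 weeks for 16 of 67 member probe sets (7 higher, 9 lower), or 23.9%, against 19.9% of all probe sets. Each gene is therefore described below by its values on single arrays, on the brightest of its probe sets unless another is named, and no difference within a week has a replicate check.

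**Figure D1:**
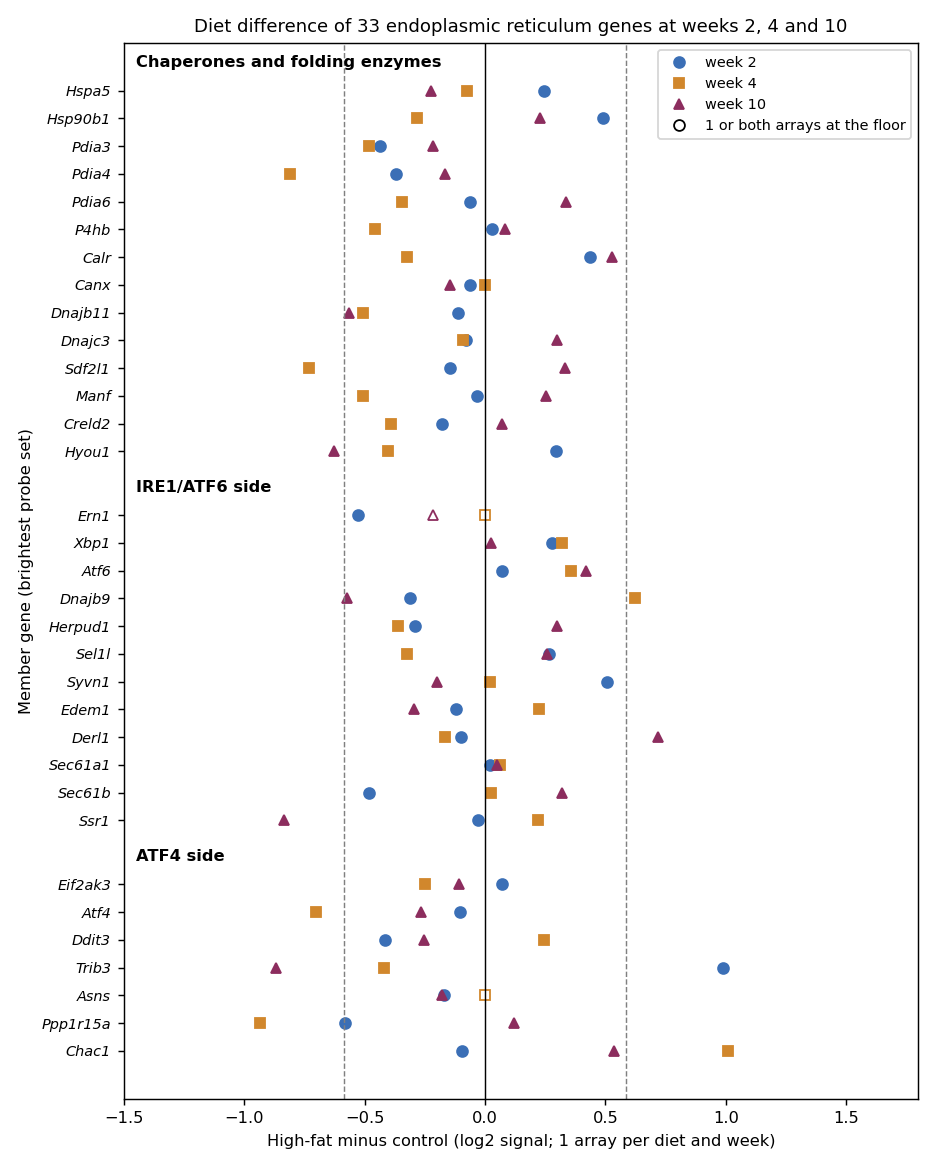
High-fat minus control difference (x axis, log2 signal) of the 33 genes (y axis, brightest probe set) at weeks 2 (circles), 4 (squares) and 10 (triangles), with 1 array per diet and week, dashed lines at 1.5-fold and open symbols where an array lay at the floor. The week 4 squares of all 14 chaperones lie at or left of 0 on these centred values (those of Hspa5, Hsp90b1, P4hb and Canx turn to 0 or above after loess on brightness), and Chac1, Trib3 and Ppp1r15a reach farthest from 0.

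Among the chaperones and folding enzymes, lower values on the high-fat array prevailed at week 4. At that week 23 of 27 probe sets tested were lower, 1 was higher and 3 lay at the floor on both arrays, where 45.8% of all 14533 probe sets were lower and 2791 had a difference of 0. The median difference was -0.31, against 0.00 over all probe sets. The size was small for most, with 2 of 27 at least 1.5-fold lower (7.27% of all probe sets) and 0 at least 1.5-fold higher (4.46% of all). The differences of week 4 moved with brightness: the median was -0.14 in the 3633 brightest of all probe sets, which hold 35 of the 67 member probe sets. The 7 hepatocyte markers all had lower values at week 4 (-1.03 to -0.80), and their part in the chaperone values was not tested. After a loess correction for brightness the chaperone median was -0.10 and 18 of 27 were lower. Of the 14415 probe sets above the floor on at least 3 arrays both before and after it, 39.8% were lower. Probe sets with a difference of 0 count as not lower in these shares, which holds down the share over all probe sets.

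Pdia4, a disulfide isomerase of the endoplasmic reticulum, had the largest of these differences. Its signal was 2039 (control) and 1577 (high-fat) in week 2, 1134 and 646 in week 4, and 2748 and 2450 in week 10. The high-fat array was the lower of the pair each time, 1.75-fold at week 4, with a difference of -0.81 that was the same after loess. Over the 3 weeks the mean was -0.45 (standard error 0.228, limma adjusted p = 0.993). A dimmer probe set of Pdia4 lay at the floor on both arrays of week 4 and was higher by 0.44 at week 10.

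Sdf2l1, a subunit of chaperone complexes with Hspa5, had signals of 499 and 451 in week 2, 521 and 314 in week 4, and 638 and 804 in week 10. It was 1.66-fold lower after high-fat feeding at week 4 and higher at week 10. Dnajb11, a co-chaperone of Hspa5, was lower at all 3 weeks, with 1010 and 934, 1509 and 1064, and 1263 and 854. Pdia3, the isomerase that acts on glycoproteins, was also lower each time, with differences of -0.44, -0.48 and -0.22. For the last of these the mean was -0.38 (standard error 0.214, limma adjusted p = 0.993), so the direction was kept while the size stayed within 2 standard errors.

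Hspa5, the central chaperone BiP and the most used marker of the response, differed little. Its signal was 9868 (control) and 11707 (high-fat) in week 2, 10657 and 10119 in week 4, and 11551 and 9886 in week 10. No pair differed by more than 1.19-fold, and the sign at week 4 (-0.07) turned to 0.29 after loess on brightness. The mean difference was -0.02 (standard error 0.22), and a second probe set had 0.04, -0.18 and -0.05. On the larger design of week 4, another, dim probe set had log2 signals of 7.95 and 9.01, a difference of 1.05 that the others did not show.

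Hsp90b1, the chaperone GRP94, had signals of 5111 and 7176 in week 2, 8439 and 6928 in week 4, and 4500 and 5267 in week 10. Its second probe set was lower at week 2 (-0.35) where the brightest was higher (0.49), so the direction at week 2 depends on the probe set. At weeks 4 and 10 both agreed in sign, with -0.28 and -0.56, then 0.23 and 0.44, although the brightest had 0.01 at week 4 after loess.

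Calr, the glycoprotein chaperone calreticulin, had the largest difference of the chaperones at week 10, on 1 of its probe sets (1.19). Its signals were 8557 and 11570 in week 2, 8731 and 6980 in week 4, and 8437 and 12143 in week 10. All 3 of its probe sets were higher on the high-fat array at week 2 (0.12 to 0.44), lower at week 4 (-0.35 to -0.31, and -0.02 on the brightest after loess) and higher at week 10 (0.53, 0.92 and 1.19). The last is 2.28-fold, from 5492 to 12529. Canx, the membrane-bound partner of Calr with the same promoter element, had -0.06, 0.00 and -0.14, and 0.24 at week 4 after loess. Its dimmer probe sets were lower at week 4, by -0.41 and -0.27, and by -0.36 and -0.24 after loess.

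Hyou1, a large chaperone that helps exchange the nucleotide of Hspa5, had 1780 and 2186 in week 2, 845 and 639 in week 4, and 3285 and 2127 in week 10. The difference of -0.63 at week 10 was not seen on its next probe set, which gave -0.60 at week 2 and 0.87 at week 10, the opposite order. P4hb, an isomerase that also serves collagen hydroxylation, had 0.03, -0.46 and 0.08, and 0.00 at week 4 after loess. The isomerase Pdia6, the secreted factor Manf and the stress-induced Creld2 had -0.18 to -0.03 at week 2, -0.51 to -0.34 at week 4 and 0.07 to 0.34 at week 10. Dnajc3, which inhibits PERK, had values between -0.36 and 0.43 on its 5 probe sets.

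At week 2 the chaperones had a median of -0.06 and 17 of 27 were lower, where 54.0% of all probe sets were. In that week 0 of 27 were at least 1.5-fold higher (7.38% of all) and 1 was at least 1.5-fold lower (10.2% of all). At week 10 the median was 0.18 and 18 of 27 were higher, where 50.5% of all probe sets were. There 3 of 27 were at least 1.5-fold higher (14.0% of all) and 1 was lower by as much (13.6% of all). Of the 3 higher ones, 2 were probe sets of Calr and 1 of Hyou1. Pancreatic acinar cells are rich in these chaperones. The summed signal (before the floor) of 8 of their markers went from 2347 to 1535 at week 2, 1841 to 1192 at week 4 and 1673 to 2932 at week 10. At week 10 Prss2 went from 207 to 908, Cela1 from 545 to 894 and Ctrb1 from 185 to 417. Cel went from 397 to 428 and Reg1 from 208 to 158, with Cela2a, Cpa1 and Cpb1 at the floor on all 6 arrays. The summed signal of 5 plasma and B cell markers at week 10 went from 1726 to 2206, with Tnfrsf17 at the floor on 5 arrays. In that week 12 of 12 Kupffer cell and macrophage markers were higher, with Marco at 167 against the floor, and 7 of 7 hepatocyte markers lower (median -0.51). These marker values are centred and have no loess correction for brightness. The part of other cells in the chaperone values was not tested.

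Chaperones with and without the ER stress element were set side by side as a description. On the brightest probe set, the 7 with it had medians of -0.06, -0.28 and 0.23 at weeks 2, 4 and 10. The 5 with a window and without it (Pdia3, Pdia4, P4hb, Dnajb11 and Sdf2l1) had -0.15, -0.50 and -0.17. At week 4 all 12 were lower, by up to 0.39 with the element and by 0.46 to 0.81 without it, and after loess these ranges overlapped, with -0.39 for Creld2 and 0.00 for P4hb. The ranges overlapped at weeks 2 and 10 before it.

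**Figure D2:**
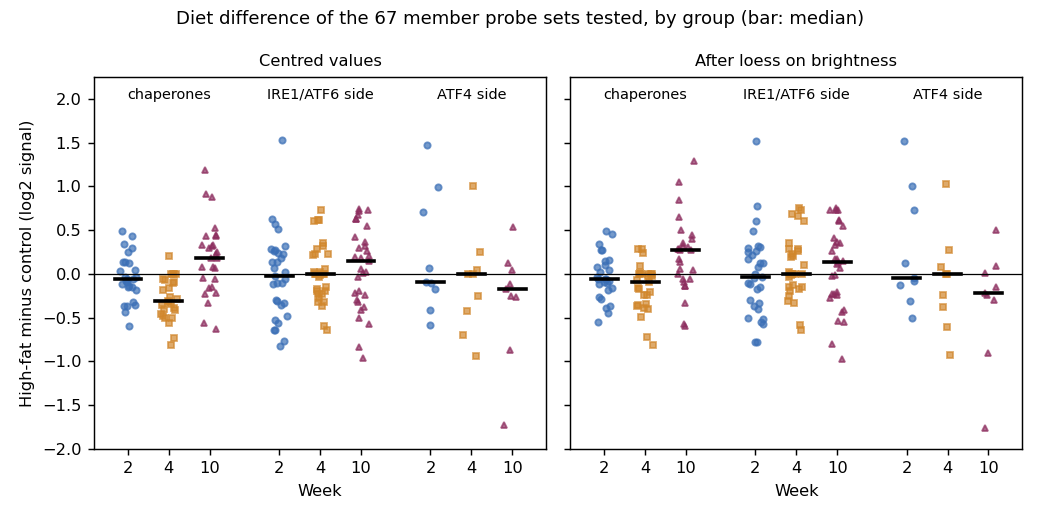
High-fat minus control difference (y axis, log2 signal) of the 67 member probe sets tested by group and week (x axis), with points for probe sets and a bar for the median, before (left) and after (right) loess on brightness. The chaperone median at week 4 moves from -0.31 to -0.10, and at week 10 it stays above 0, at 0.18 and 0.27.

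On the IRE1/ATF6 side the medians were near 0, with -0.03, 0.00 and 0.15 over 31 probe sets at weeks 2, 4 and 10. At least 1.5-fold higher were 2, 4 and 6 of 31, and lower by as much were 4, 2 and 2. At week 4 the 4 higher ones are 12.9%, against 4.46% of all probe sets, and were 2 for Xbp1 and 1 each for Dnajb9 and Derl1. At weeks 2 and 10 the shares higher were 6.45% and 19.4%, beside 7.38% and 14.0% of all probe sets. The shares lower at weeks 2, 4 and 10 were 12.9%, 6.45% and 6.45%, beside 10.2%, 7.27% and 13.6% of all.

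Xbp1, the factor that IRE1 activates by splicing, had higher values on the high-fat array at all 3 weeks on its 2 brightest probe sets. The brightest gave 7407 and 8977 in week 2, 6470 and 8073 in week 4, and 6366 and 6484 in week 10. The second brightest gave 4799 and 5967, 3224 and 4892, and 3590 and 5737, each high-fat array above its control. Its mean difference was 0.53 (standard error 0.217, limma adjusted p = 0.993), the one member probe set with an unadjusted p under 0.05. The third had 0.14, 0.61 and -0.24, and the dimmest was lower each time (-0.06, -0.28 and -0.41), so the probe sets of Xbp1 did not share a direction. XBP1 is also a factor of plasma cells. At week 4 the summed signal of 5 plasma and B cell markers went from 1036 to 2451, with Ighm at 2.16 and Jchain at 0.84. Cd79b had 0.14 in that week, and Cd79a and Tnfrsf17 lay at the floor on both arrays. The sum went from 1348 to 1257 at week 2 and from 1726 to 2206 at week 10. The part of plasma and B cells in the Xbp1 values was not tested.

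The sensors were measured as follows. Atf6 had 801 and 841 in week 2, 619 and 791 in week 4, and 767 and 1026 in week 10, higher on the high-fat array each time, with a mean of 0.28 (standard error 0.216). Ern1 had 308 and 214 at week 2, lay at the floor on both arrays of week 4, and had 181 against the floor at week 10. Another Ern1 probe set had -0.34, 0.00 and 0.18. Of 2 further Ern1 probe sets on the larger design, the brighter gave 0.33 at week 4 and the other at least 0.54 lower. The sensors thus differed in direction, and none by 1.5-fold above the floor.

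Dnajb9, a co-chaperone raised by XBP1, differed in order between weeks. Its signal was 4185 and 3369 in week 2, 1792 and 2757 in week 4, and 3400 and 2285 in week 10. The high-fat array was 1.54-fold higher at week 4, and 1.24-fold and 1.49-fold lower at weeks 2 and 10.

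Among genes of degradation, Herpud1, which recruits the degradation complex, had 5824 and 4753 in week 2, 11739 and 9125 in week 4, and 5160 and 6339 in week 10. The difference at week 4 (-0.36) was 0.00 after loess. Its second probe set was lower at week 10 (-0.32) where the brightest was higher (0.30). Syvn1, the ligase of that complex, had 0.51, 0.02 and -0.20, and 0.47 on a probe set of the larger design at week 4. Its partner Sel1l had 0.27, -0.32 and 0.26, while its other probe sets gave -0.64 to 0.29 at week 2. A Sel1l probe set of the larger design gave 0.35 at week 4, opposite in sign to the shared ones. Edem1, which sorts misfolded glycoproteins, had -0.12, 0.23 and -0.29 on one probe set and 0.18, -0.19 and 0.55 on the other.

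Derl1, a membrane protein of the exit channel, had 1679 and 1567 in week 2, 1950 and 1736 in week 4, and 1536 and 2524 in week 10. That is 1.64-fold higher at week 10 on the brightest of 4 probe sets. Another gave 737 and 2126, 681 and 1133, and 1441 and 739, so 2.89-fold higher at week 2 and 1.95-fold lower at week 10. The mean over the 4 was -0.12 at week 10, against 0.72 on the brightest.

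Of the translocation genes, Ssr1, a subunit that assists the channel, had 2260 and 2217 in week 2, 1832 and 2132 in week 4, and 3809 and 2134 in week 10. The control array of week 10 was the high one, and the difference there was 1.79-fold, with 0.01 and -0.50 on its other probe sets. Sec61b, a small channel subunit, had -0.48, 0.02 and 0.32. Sec61a1, the pore itself, had 0.02, 0.06 and 0.05 on the brightest of 6 probe sets.

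The dimmer Sec61a1 probe sets departed from the brightest to differing degrees. A pair of them gave -0.76, -0.60 and 0.74, and -0.82, -0.65 and 0.63. These differences were opposite in sign at each week to those of the 3'/5' ratio of pyruvate carboxylase between the diets (1.33, 0.87 and -0.74) and of the beta-actin ratio (0.42, 0.13 and -0.56), and not at week 4 to that of the Gapdh ratio (0.37, -0.01 and -0.12). The remaining dimmer probe sets gave -0.35, -0.19 and -0.04, then 0.14, -0.24 and 0.73, then -0.65, 0.00 (floor on both arrays) and 0.20. The first of these shared the sign of the pyruvate carboxylase and beta-actin values at week 10, and the second at week 2. The brightest shared it at weeks 2 and 4. Opposite signs at each week were thus seen on the pair only. The part of RNA integrity was not tested.

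**Figure D3:**
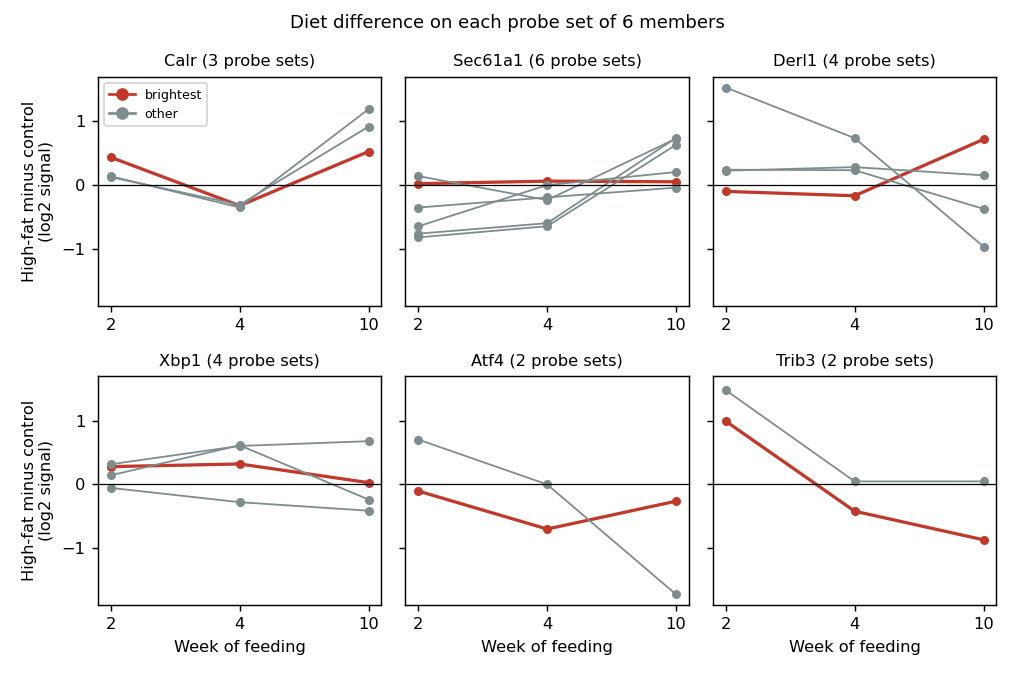
High-fat minus control difference (y axis, log2 signal) at weeks 2, 4 and 10 (x axis) on each tested probe set of 6 members, the brightest in red and the others in grey. Calr has 1 sign per week on all its probe sets, while Sec61a1 (-0.82 to 0.14 at week 2), Derl1 (-0.10 to 1.53) and Xbp1 have probe sets of both signs.

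Probe sets of 1 gene were compared with each other, although they can target different ends or isoforms of its transcripts. In the 18 members with at least 2 tested, the median SD between them was 0.24, 0.23 and 0.39 at weeks 2, 4 and 10, beside 0.31, 0.22 and 0.36 over 3000 genes. They all shared a sign in 8, 7 and 6 of the 18, and this was not counted over all genes. A difference of 0 at the floor counted as not sharing, which alone left out Pdia4, Pdia6, Hyou1 and Ern1 at week 4. A difference seen on 1 probe set is to be read against this spread.

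On brightest probe sets the ATF4 side held the 3 largest differences of the set (Chac1, Trib3 and Ppp1r15a), which differed in direction. Of its 9 probe sets tested, 3, 1 and 0 were at least 1.5-fold higher at weeks 2, 4 and 10, and 0, 2 and 2 lower by as much. The 3 at week 2 (33.3%, against 7.38% of all probe sets) were both of Trib3 and 1 of Atf4. At week 4 the 1 higher was Chac1 (4.46% of all) and the 2 lower were Ppp1r15a and Atf4 (7.27% of all), and at week 10 the 2 lower were Trib3 and Atf4 (13.6% of all). With so few probe sets the medians (-0.10, 0.00 and -0.18) say little.

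Trib3, a pseudokinase raised by ATF4 and CHOP that also binds AKT in liver, had higher values after high-fat feeding at week 2 on both probe sets. The brightest gave 487 and 967 in week 2, 308 and 230 in week 4, and 461 and 252 in week 10. The high-fat array was 1.99-fold above its control at week 2 and 1.83-fold below it at week 10. The second gave 290 and 807, 270 and 279, and 395 and 408, so 2.78-fold at week 2 and near 0 afterwards (0.05 and 0.05). The higher value of week 2 was thus seen on both, and the lower value of week 10 on 1. That of week 10 was -0.38 with a floor at the 60th percentile and -0.41 as the mean of its probe sets, in place of -0.87.

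Chac1, which breaks down glutathione and is a target of ATF4, had 478 and 448 in week 2, 260 and 524 in week 4, and 447 and 648 in week 10. At week 4 the high-fat array was 2.01-fold higher, the largest difference of the 33 genes on brightest probe sets. With a floor at the 60th percentile that difference was 0.57 in place of 1.01, the control lying near the floor. The mean over the weeks was 0.48 (standard error 0.257, limma adjusted p = 0.993).

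Ppp1r15a, the phosphatase subunit GADD34 that ends the translation block, had 486 and 325 in week 2, 701 and 367 in week 4, and 469 and 510 in week 10. It was 1.91-fold lower on the high-fat array at week 4, where Chac1 was higher, and -0.93 also after loess. Atf4 itself had 2011 and 1870 in week 2, 3557 and 2189 in week 4, and 2968 and 2471 in week 10, lower each time and 1.62-fold at week 4. Its second probe set gave 0.70 at week 2, 0.00 at week 4 and -1.73 at week 10, from 868 to 263. The probe sets of Atf4 thus shared a direction at week 10 and not at week 2.

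Ddit3, the factor CHOP, had 341 and 255 in week 2, 279 and 331 in week 4, and 346 and 290 in week 10, so the control arrays were the higher at weeks 2 and 10 and the high-fat array at week 4, all by less than 1.5-fold. Asns, asparagine synthetase and a classical ATF4 target, had 376 and 334 at week 2 and 373 and 330 at week 10, and lay at the floor on both arrays of week 4. Eif2ak3, the sensor PERK, had 0.07, -0.25 and -0.11. Targets of ATF4 in the set therefore differed among themselves: at week 2 Trib3 was 1.99-fold higher while Chac1 and Asns had -0.10 and -0.17, and at week 4 Chac1 was 2.01-fold higher while Trib3 had -0.42.

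**Figure D4:**
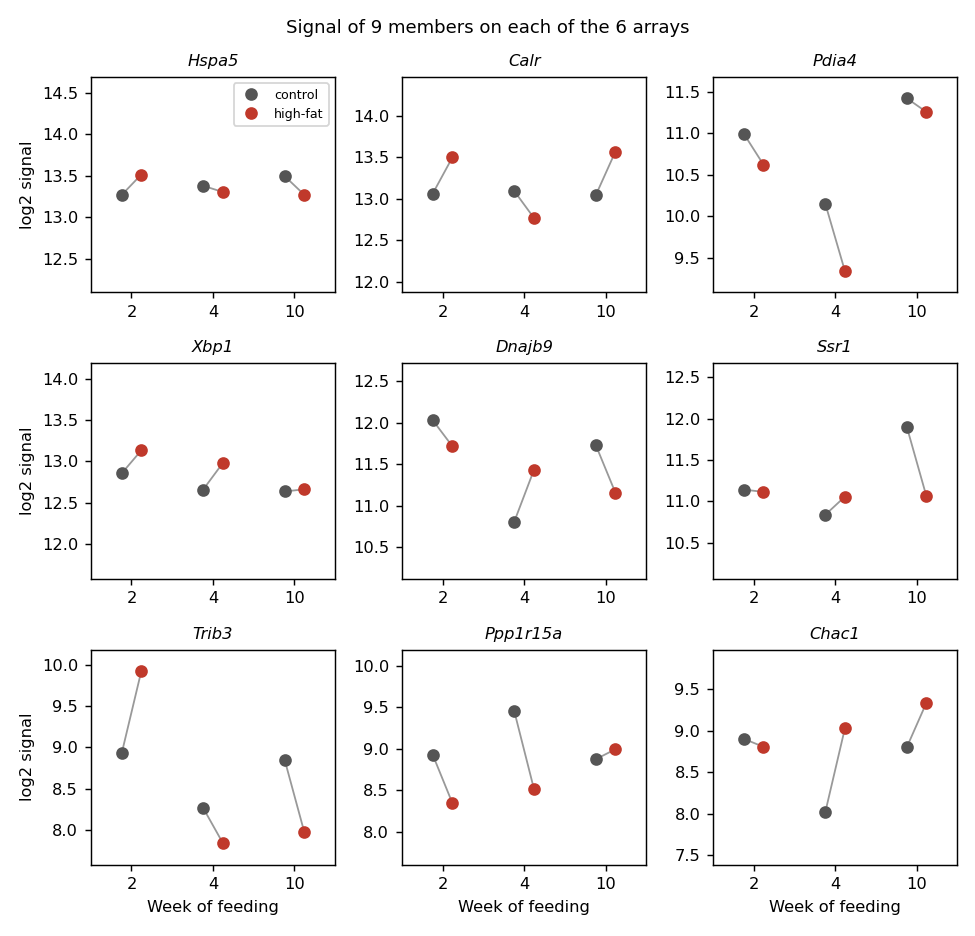
Log2 signal (y axis, each panel spanning the same range) of 9 members on the control (grey) and high-fat (red) arrays at weeks 2, 4 and 10 (x axis), with a line joining the pair of a week. Weeks 2 and 10 share an array design that week 4 does not. Trib3 at week 2 and Chac1 at week 4 are the pairs with the high-fat array farthest above its control.

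Weeks 2 and 10 share an array design, so levels were also set against each other within each diet. These comparisons use the same 4 arrays as the diet differences above. On the control diet the chaperones had a median of -0.18 from week 2 to week 10 over 27 probe sets, and on the high-fat diet 0.07, against 0.01 and 0.08 over all probe sets. With 1 probe set per gene the control value turned to 0.30. The IRE1/ATF6 side had 0.09 and 0.18, and the ATF4 side -0.01 and -0.02. Trib3 went from 967 to 252 between the high-fat arrays and from 487 to 461 between the controls. Syvn1 had -0.92 between the high-fat arrays and -0.22 between the controls, Sec61b 1.02 and 0.22, and Pdia6 0.84 and 0.44.

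Further genes of the same pathways were taken from 3 lists, by their brightest probe sets. Of the other folding factors, 16 of 18 were measured and 0 passed the limma test, with medians of 0.00, -0.17 and 0.26, 12 of 16 being lower at week 4 and 11 higher at week 10. Over their 31 probe sets the median of week 4 was -0.08, and 0.00 after loess. Txndc5, an isomerase common in secretory cells, had -0.29, -0.23 and 0.65, and Ppib, a prolyl isomerase, -0.29, -0.43 and -0.41. Of 36 other genes of the IRE1/ATF6 side, 31 were tested and 0 passed, with medians of 0.07, 0.01 and -0.03. Of 36 other ATF4 side genes, 29 were tested and 0 passed, 2 having an unadjusted p under 0.05, with medians of -0.04, 0.00 and -0.24.

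In that last list 8 of 29 were at least 1.5-fold lower at week 10 and 2 higher, or 10 of 46 probe sets lower (21.7%) where 13.6% of all were. Genes at least 2-fold different with both arrays above the floor were Ddit4, Ppp1r15b and Cth. Ddit4, an inhibitor of mTOR, had 837 and 416 in week 2, 1092 and 209 in week 4, and 303 and 363 in week 10. Ppp1r15b, the constitutive counterpart of Ppp1r15a, had 0.95, 0.11 and -1.24, and Cth, which makes cysteine from cystathionine, -0.29, -1.22 and -1.24. Fgf21, a hormone of the liver named after its values were seen, had 750 and 590 at week 2, the floor against 282 at week 4, and 814 against the floor at week 10, a difference of -2.39 or beyond. The direction at each week differed among these genes, as it did among Trib3, Chac1 and Ppp1r15a.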

How the data were processed

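The authors deposited linear signal intensity per probe set in 2 tables scaled separately, 1 for weeks 2 and 10 and 1 for week 4; the software and detection calls are not given in the sources used here. Biotin-labelled cRNA was made by in vitro transcription, per the labels' protocols. The trimmed means of the deposited intensities were near 500 on 5 arrays and 799.9 on the control array of week 2. From the deposited intensities, log2 values of the 22626 shared probe sets (64 control probe sets left out) were centred on the median of those above the floor on every array. The floor was the pooled 40th percentile. The 14533 probe sets above it on at least 3 of 6 arrays were fitted with limma 3.58.1 in R 4.3.3, with week as a block. Its error is the variation among the weekly differences, biological or technical, and the fit was tested on simulated data. A single week has no test. Of the shared probe sets 20380 had 1 symbol, 691 several and 1555 none, in the platform annotation updated through gene identifiers. Named genes are the 12 members with the largest difference within a week above the floor, a fixed set (Hspa5, Xbp1, Atf4, Ddit3, Hsp90b1, Pdia4, Herpud1, Trib3, Asns) and other pathway genes at least 2-fold different; further members are named to account for all. Members and lists were chosen with earlier results of these data known. Alternatives changed the scaling, floor, filter, probe sets, block, variance model and weeks. The number of arrays limits the precision. The 6 stellate and endothelial markers had medians of 0.10, 0.00 and 0.34.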

Additional observations from a re-analysis of the deposited data

Results flagged for a closer look

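Trib3 had a difference (high-fat minus control, log2) of 0.99 at week 2 and of -0.87 at week 10, each by at least 1.5-fold on its brightest probe set with both arrays above the floor. On brightest probe sets it was the one member of 33 with such opposite directions at different weeks. The difference between the weeks was not tested, since each week has 1 array per diet. On its second probe set the values were 1.48 and 0.05, so the week 10 value is not shared. The week 10 value was -0.38 with a floor at the 60th percentile and -0.41 as the mean of its probe sets, both under 1.5-fold. Dimmer probe sets of other members also had opposite directions of at least 1.5-fold. Among them were 1 of Derl1 (1.53 at week 2 and -0.96 at week 10) and 1 of Atf4 (0.70 and -1.73).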

How the results depend on the processing

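No member probe set was called in any of the 13 alternatives, with a lowest adjusted p of 0.137 without week 10 and of 0.959 or above in the others. Over all probe sets the 2 calls became 10 with the values as deposited, 1 with 1 probe set per gene or with trend and robust, and 0 under quantile normalization, loess, the 20th or 60th percentile floor, no filter and without _s_at, _x_at and _a_at probe sets. Without the week block (no replicate block) 0 were called, and leaving out a week gave 0 to 9, namely 9 without week 2, 0 without week 4 and 6 without week 10. The values as deposited, with the higher target of the control array of week 2, gave medians of -0.73, -0.70 and -0.76 at week 2 for the chaperones, the IRE1/ATF6 side and the ATF4 side, and of -0.88, -0.60 and -0.71 for week 10 minus week 2 on the control diet. With 1 probe set per gene the chaperone median of that comparison was 0.30. On the high-fat diet the ATF4 side had -0.34 at the 60th percentile floor and 0.29 without _s_at, _x_at and _a_at probe sets; the cause was not tested. The other 118 group values and counts moved by less than the spread between probe sets of a gene (0.29) or stayed within 1.5 times. That spread is larger than most of the group medians, so these 118 include changes of sign. For example, the ATF4 side at week 2 had -0.10, and 0.07 at the 60th percentile floor. The IRE1/ATF6 side on the control diet had 0.094 from week 2 to week 10, and -0.095 with 1 probe set per gene. For named genes, differences past 1.5-fold turned sign for Hyou1 at week 10 (0.12 for the mean of its probe sets, 0.87 without those with a suffix) and for Derl1 at week 10 (-0.12 for the mean). Signal near the floor limits Ern1, Asns, the dim probe sets of week 4 and several ATF4 side genes: at the 60th percentile floor Chac1 at week 4 had 0.57, Trib3 at week 10 -0.38 and at week 4 0.00, and Ddit3 at week 2 0.00.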
